A study of Homo sapiens with 6 samples.

Results

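Cadherins and catenins are the proteins of the adherens junction, the contact at which neighbouring epithelial cells hold each other. The 10 genes described here were 8 cadherins (CDH1, CDH2, CDH3, CDH4, CDH6, CDH11, CDH13 and CDH17) and 2 catenins (CTNNB1 and CTNND1). They were chosen by name, with earlier results of these data known. All 10 were among the 35856 genes of the deposited table. RNA sequencing compared 3 libraries of HCCLM3 cells overexpressing the long noncoding RNA LINC00862 (the LINC00862 group) with 3 libraries of HCCLM3 cells transfected with an empty vector (the NC group). HCCLM3 is an established human hepatocellular carcinoma line, selected for its capacity to metastasise, and the study asked what LINC00862 changes in such cells. Neither the labels nor the methods say whether the libraries came from separate cultures, or whether the overexpressing cells were a pool or a clone, so p-values measure the spread between these 3 libraries per group, which may be technical. Total counts lay between 58241123 and 68229070 per library.

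Classical cadherins are transmembrane adhesion molecules that bind each other across the gap between cells when calcium is present, and each type preferentially binds its own kind. Inside the cell, p120-catenin (CTNND1) holds the cadherin at the membrane, and β-catenin (CTNNB1) links it through α-catenin (CTNNA1) to actin. β-catenin that is not bound to a cadherin is either destroyed by a cytoplasmic complex or enters the nucleus, where it acts with TCF factors as the end point of Wnt signalling. Hepatocytes normally carry E-cadherin (CDH1) and also N-cadherin (CDH2), and a change from CDH1 to CDH2 is the textbook mark of the epithelial-mesenchymal transition.

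Before the members, the labels were checked against other genes. LINC00862 was higher in the libraries labelled with it, with an FPKM (fragment counts scaled by transcript length and library depth) of 0.0507 ± 0.0343 in NC and 0.449 ± 0.120 in LINC00862 (SD, n = 3). Its log2 fold change was 3.22 ± 0.53 (SE, Benjamini-Hochberg adjusted p = 0.000583, edgeR quasi-likelihood test). Its counts were 11, 21 and 6 in NC and 145, 121 and 76 in LINC00862, so it stayed under 1 FPKM in the cells said to overexpress it. By absolute log2 fold change it ranked only 4146 among the 20741 tested genes. Its rise is therefore a weak check of the labels. RBM47, an RNA-binding protein that the study followed, had 0.208 ± 0.0807 FPKM in NC and 7.76 ± 0.740 in LINC00862. The study picked RBM47 partly for its rise in these same data, so it is no separate check of the labels. Markers of the labelled hepatoma identity differed between the groups, and many were low in both. The FPKM of 11 hepatocyte and hepatoma markers summed to between 3.05 and 3.60 in the NC libraries and to between 539 and 619 in the LINC00862 libraries, where the fibrinogen chain FGB alone averaged 550 FPKM against 1.75 in NC. TTR and GPC3 were listed at 0 in every NC library and AFP at 0 in every LINC00862 library, and albumin (ALB) averaged 0.00780 FPKM in NC and 1.51 in LINC00862. Of the 9 markers tested, 7 were higher in LINC00862 and 2 were lower, where 34.4% of all tested genes were higher and 29.8% lower. SERPINA1 was among those that fell, from 1.29 ± 0.216 to 0.0950 ± 0.0428 FPKM (SD, n = 3). In both groups, 7 of the 11 markers averaged under 1 FPKM, so the contrast of sums rests mainly on FGB. These marker differences ran along the same 2 groups as every difference given below, and their part in those differences was not tested.

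In the 3 NC libraries the cadherin transcripts were mainly CDH2 and CDH13, and in the 3 LINC00862 libraries they were mainly CDH1 and CDH3. CDH1 was 85.6 times as high in LINC00862 by mean FPKM, and CDH2 fell to 0.499% of its NC level. CDH6 and CDH11 rose with CDH1 and CDH3, CDH4 and CDH13 fell with CDH2, and CTNNB1 fell to a smaller extent. Of the 9 members that passed edgeR's filter on low counts, 5 were higher and 4 were lower at a false discovery rate of 0.05, and the FPKM of the groups did not overlap for 8. CDH17 did not pass the filter and was not tested. These counts stand against a wide background: 64.2% of the 20741 genes tested were called in this comparison, 34.4% higher and 29.8% lower, and 71.1% had FPKM values without overlap between the groups (34.4% higher and 36.6% lower). A call was therefore common. The size of the change was less so: 4 of the 9 tested members changed 64-fold or more. Of all 20741 tested genes, 9.59% had both a call and a change that large. The median absolute log2 fold change was 5.28 over the tested members and 1.16 over all tested genes. The members were chosen with earlier results of these data known, so this contrast does not test whether they stand out. The plot of FPKM by library sets out these values for all 10 genes.

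**Figure D1:**
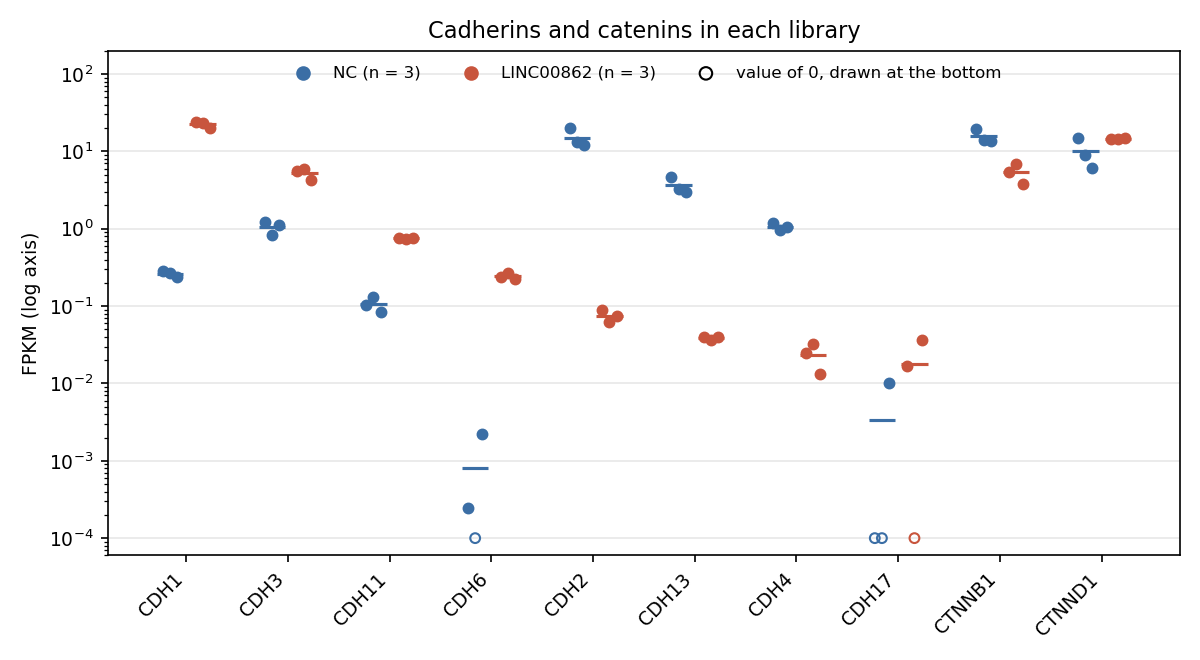
FPKM of the 8 cadherins and 2 catenins in each library, on a log axis, with the 3 NC libraries in blue, the 3 LINC00862 libraries in red and the group mean as a line. Open circles at the bottom stand for values of 0. The groups are apart for CDH1, CDH3, CDH11, CDH6, CDH2, CDH13, CDH4 and CTNNB1, and they overlap for CDH17 and CTNND1.

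RefSeq promoter windows (GRCh38.p14) were at hand for 3 of the 10 members, CDH2, CDH4 and CTNNB1. The more upstream CDH2 window and the CTNNB1 window are shown. These were chosen because CDH2 was the most abundant cadherin of NC, CTNNB1 encodes the catenin that binds its tail, and both fell. Both windows lie inside the deposited gene spans, whose upstream ends are 28177946 for CDH2 and 41194741 for CTNNB1. Each run holds the 250 bases before the RefSeq start on the strand of the gene, 5′ to 3′, from chr18:28177131-28177380 on the minus strand for CDH2 and from chr3:41199255-41199504 on the plus strand for CTNNB1. Capitals mark GGGCGG or its reverse complement CCGCCC, the letters of a GC box, and CCAAT or its reverse complement ATTGG.
CDH2: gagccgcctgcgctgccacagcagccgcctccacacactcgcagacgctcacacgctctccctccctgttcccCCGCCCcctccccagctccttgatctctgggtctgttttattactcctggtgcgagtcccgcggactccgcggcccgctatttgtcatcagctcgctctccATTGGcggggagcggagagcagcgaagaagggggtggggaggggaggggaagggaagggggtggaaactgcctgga
CTNNB1: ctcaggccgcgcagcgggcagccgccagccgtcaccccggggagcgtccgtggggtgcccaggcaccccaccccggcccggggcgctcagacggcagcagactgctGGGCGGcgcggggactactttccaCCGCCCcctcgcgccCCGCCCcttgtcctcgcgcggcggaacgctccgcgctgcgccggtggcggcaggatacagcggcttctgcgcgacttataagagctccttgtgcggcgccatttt

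The CDH2 window held 1 match to GGGCGG or CCGCCC and 1 to CCAAT or ATTGG, and the CTNNB1 window held 3 and 0. Among 35116 windows of the same length, 42.6% held the first motif and 32.0% the second, counted on both strands. Neither of these windows held CANNTG, the general E-box, which 61.8% of all windows held, nor CACCTG or its reverse complement CAGGTG, which is 1 form of that E-box and was in 17.5%. TATAAA or its reverse complement TTTATA, in 10.7% of all windows, was in neither. A second RefSeq window of CDH2, at a start farther inside the gene (chr18:28036642-28036891), held 1 E-box (CANNTG), 1 TATA motif (TATAAA) and 1 CCAAT motif. The sequences shown differed in CG dinucleotides, with 17 in the CDH2 window and 34 in the CTNNB1 window against a median of 11. Of all windows, 93.2% held fewer than the CTNNB1 window. CDH4, which also fell, had RefSeq windows starting at 61499171 and 61599511 on chromosome 20, both inside the gene and not shown. They held 2 and 1 matches to CANNTG, and 1 and 0 to CACCTG or CAGGTG. The absence of a motif says only that its letters are not in the bases searched.

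CDH1 (ENSG00000039068, chromosome 16, 68737292 to 68835537, plus strand, hg38) encodes E-cadherin, the adhesion molecule that defines epithelial sheets. It had 114, 110 and 96 counts in NC libraries 1, 2 and 3, and 11063, 9412 and 8144 in LINC00862 libraries 1, 2 and 3. In FPKM this was 0.280, 0.268 and 0.235 in NC and 23.7, 23.4 and 19.9 in LINC00862, so that the lowest LINC00862 library lay far above the highest NC library. The log2 fold change was 6.57 ± 0.17 (SE, Benjamini-Hochberg adjusted p = 2.63e-08, edgeR quasi-likelihood test). CDH1 moved from the seventh of the 10 members by mean FPKM in NC to the highest in LINC00862.

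CDH3 (ENSG00000062038), encoding P-cadherin of basal epithelial and placental cells, lies beside CDH1 on the same strand of chromosome 16, at 68636189 to 68700292, with 37.0 kb between its end and the start of CDH1. Its counts were 488, 332 and 452 in NC and 2565, 2378 and 1714 in LINC00862. Its FPKM rose from 1.05 ± 0.196 to 5.21 ± 0.898 (SD, n = 3), and every LINC00862 library was above every NC library. The log2 fold change of 2.48 ± 0.18 (SE, Benjamini-Hochberg adjusted p = 4.29e-06, edgeR quasi-likelihood test) was smaller than that of its neighbour. Unlike CDH1, CDH3 was already present at about 1 FPKM in the NC libraries.

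CDH11 and CDH6 are type II cadherins, CDH11 known from mesenchymal and bone-forming cells and CDH6 from the developing kidney. CDH11 (ENSG00000140937, chromosome 16, 64943753 to 65126112, minus strand) had 93, 114 and 76 counts in NC and 763, 660 and 685 in LINC00862, and an FPKM of 0.105 ± 0.0234 and 0.755 ± 0.0108 (SD, n = 3). It rose by a log2 fold change of 2.99 ± 0.25 (SE, Benjamini-Hochberg adjusted p = 9.84e-06, edgeR quasi-likelihood test), with no overlap between the groups. CDH6 (ENSG00000113361, chromosome 5, 31193686 to 31329146, plus strand) was all but unread in NC, with 1, 0 and 2 counts, against 226, 218 and 188 in LINC00862. The summed counts, corrected for TMM-scaled library size, gave a ratio of 225 with an exact 95% interval of 76.6 to 1094, which covers counting error only. It passed the edgeR quasi-likelihood test with a Benjamini-Hochberg adjusted p of 5.62e-06. Even so, CDH6 reached only 0.242 ± 0.0210 FPKM in LINC00862, close to the level of CDH1 in NC.

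CDH2 (ENSG00000170558, chromosome 18, 27932879 to 28177946, minus strand) encodes N-cadherin, found in neural, cardiac and mesenchymal cells and in hepatocytes. Its counts were 11244, 7339 and 6994 in NC and 58, 36 and 44 in LINC00862. In FPKM it was 19.8, 13.1 and 12.2 in NC and 0.0877, 0.0622 and 0.0752 in LINC00862, a gap of more than 2 powers of 10 between the closest libraries. The log2 fold change was -7.43 ± 0.25 (SE, Benjamini-Hochberg adjusted p = 6.47e-08, edgeR quasi-likelihood test). NC library 1 was the highest of its group for CDH2, as it was for CDH1, CDH3, CDH4, CDH13, CTNNB1 and CTNND1.

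CDH13 (ENSG00000140945, chromosome 16, 82626965 to 83800640, plus strand) encodes T-cadherin, which lacks the transmembrane and cytoplasmic parts, is held in the membrane by a lipid anchor and binds adiponectin. Its counts fell from 3368, 2356 and 2224 in NC to 34, 27 and 30 in LINC00862. CDH13 had 3.63 ± 0.854 FPKM in NC and 0.0384 ± 0.00203 in LINC00862 (SD, n = 3), and its log2 fold change was -6.34 ± 0.22 (SE, Benjamini-Hochberg adjusted p = 7.41e-08, edgeR quasi-likelihood test). CDH1, CDH3, CDH11 and CDH13 are 4 members on chromosome 16, and CDH13 was the only 1 of them that fell. CDH4 (ENSG00000179242, chromosome 20, 61252261 to 61940617, plus strand), R-cadherin of the retina and brain, fell from 589, 468 and 526 counts to 15, 16 and 7. Its FPKM was 1.06 ± 0.116 in NC, like that of CDH3 there, and 0.0232 ± 0.00938 in LINC00862 (SD, n = 3), with a log2 fold change of -5.28 ± 0.34 (SE, Benjamini-Hochberg adjusted p = 1.91e-06, edgeR quasi-likelihood test).

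CDH17 (ENSG00000079112, chromosome 8, 94127162 to 94208555, minus strand), the liver-intestine cadherin, was barely read in either group. Its counts were 0, 0 and 3 in NC and 6, 0 and 10 in LINC00862, so LINC00862 library 2 had none. The ratio of the summed counts was 5.69 with an exact 95% interval of 1.63 to 30.5 for counting error only, and the FPKM of the groups overlapped (exact permutation test, two-sided p = 0.4). A difference between the groups was not detectable beyond the spread between libraries. Markers of intestinal epithelium were also near 0, with 4 of 6 in the table and their summed FPKM between 0.0362 and 0.351 over the 6 libraries.

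CTNNB1 (ENSG00000168036, chromosome 3, 41194741 to 41240443, plus strand), encoding β-catenin, had 15121, 10859 and 10779 counts in NC and 4864, 5361 and 2965 in LINC00862. Its FPKM was 19.4, 14.1 and 13.7 in NC and 5.40, 6.89 and 3.75 in LINC00862, without overlap. The log2 fold change was -1.39 ± 0.20 (SE, Benjamini-Hochberg adjusted p = 0.000279, edgeR quasi-likelihood test). A change of this size was near the median absolute change of all tested genes, 1.16 on the log2 scale.

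CTNND1 (ENSG00000198561, chromosome 11, 57753243 to 57819546, plus strand), encoding p120-catenin, had 9755, 5729 and 4013 counts in NC and 10808, 9472 and 9783 in LINC00862. In FPKM the NC libraries spread from 15.0 through 8.96 to 6.14, while the LINC00862 libraries lay close together at 14.4, 14.7 and 14.9, within reach of NC library 1. The log2 fold change was 0.75 ± 0.25 (SE, Benjamini-Hochberg adjusted p = 0.0284, edgeR quasi-likelihood test), but an exact permutation test of the FPKM gave a two-sided p of 0.4. The call was lost in 10 of 15 alternative analyses, among them 5 of the 6 fits that left out 1 library (adjusted p between 0.000784 and 0.0919), and it was kept without NC library 1. An overlapping gene model on the same strand, AP001931 (ENSG00000288534), had 1705, 395 and 1483 counts in NC and 1980, 2042 and 1264 in LINC00862, and how reads shared with CTNND1 were divided is not given in the sources used here. The fold change of CTNND1 is therefore uncertain, unlike those of the other 8 tested members, whose calls were kept in all 15 alternatives.

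**Figure D2:**
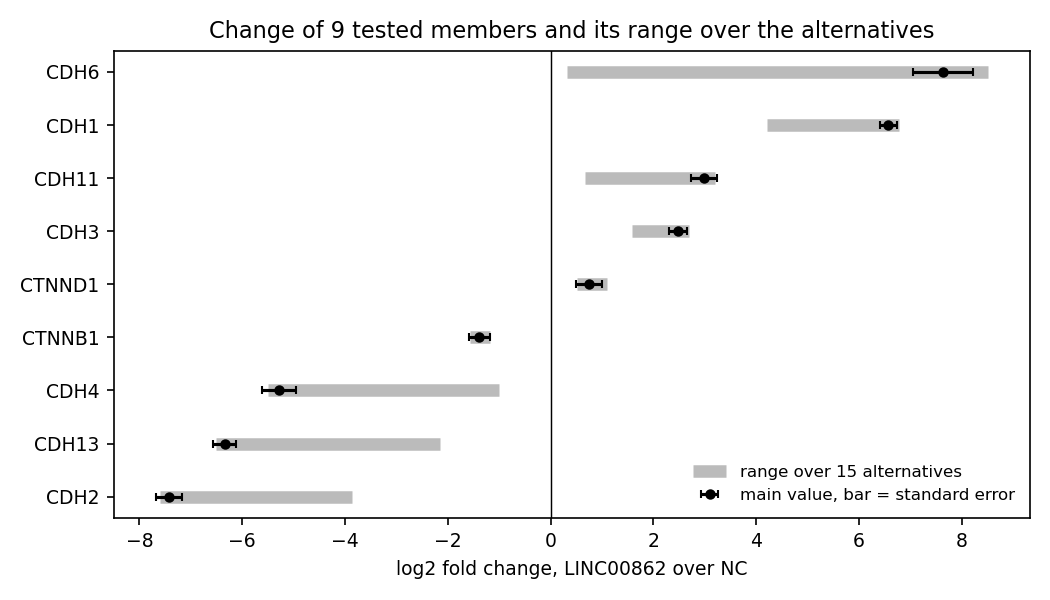
Log2 fold change of 9 tested members, LINC00862 over NC, with the standard error as a black bar and the range over 15 alternative analyses as a grey band. The values run from -7.43 for CDH2 to 7.64 for CDH6, no band crosses 0, and the inner ends of the wide bands come from limma on log2(FPKM + 1), which compresses genes at low FPKM.

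FPKM is scaled by length, so levels of different members can be set side by side within a group. In NC, the mean FPKM of CTNNB1 (15.8), CDH2 (15.0) and CTNND1 (10.05) came first, and the ranges of neighbours in this order overlapped. CDH13 (3.63) followed, then CDH4 and CDH3, whose ranges overlapped, then CDH1 and CDH11, and CDH17 and CDH6 came last with overlapping ranges near 0. In LINC00862 the order was CDH1 (22.3), CTNND1 (14.7), then CTNNB1 and CDH3 with overlapping ranges at 5.35 and 5.21 FPKM. CDH11, CDH6, CDH2 and CDH13 followed, each apart from the next, and CDH4 and CDH17 shared the bottom. CDH2 thus went from the second to the seventh of 10 places while CDH1 went from the seventh to the first.

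The summed FPKM of the 8 cadherins changed far less than its parts. The cadherin sum was 27.2, 18.5 and 17.7 in NC and 30.4, 30.4 and 25.3 in LINC00862, with NC library 1 inside the range of the other group (exact permutation test, two-sided p = 0.2). The FPKM of all genes summed to 296336, 354830 and 325534 in NC and 429487, 420733 and 512467 in LINC00862. A difference in the cadherin sum between the groups therefore depends on scaling. Within the cadherin sum, CDH2 made up 72.8%, 70.6% and 68.9% in the NC libraries and 0.289%, 0.205% and 0.298% in the LINC00862 libraries. CDH1 made up 1.03%, 1.44% and 1.33% in NC and 78.0%, 76.8% and 78.8% in LINC00862. The make-up of the sum was therefore closely alike within each group and had no overlap between them. CDH13 went from 17.2% ± 0.369 to 0.135% ± 0.0192, CDH4 from 5.14% ± 0.778 to 0.0792% ± 0.0262, and CDH3 from 5.07% ± 1.04 to 18.1% ± 1.41 (SD, n = 3). CDH11 and CDH6 rose as shares too, to 2.65% ± 0.331 and 0.847% ± 0.0591, and stayed minor. For every cadherin of these 8 but CDH17 (p = 0.7) the exact permutation test of the share gave p = 0.1, the smallest that 3 libraries against 3 allow.

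**Figure D3:**
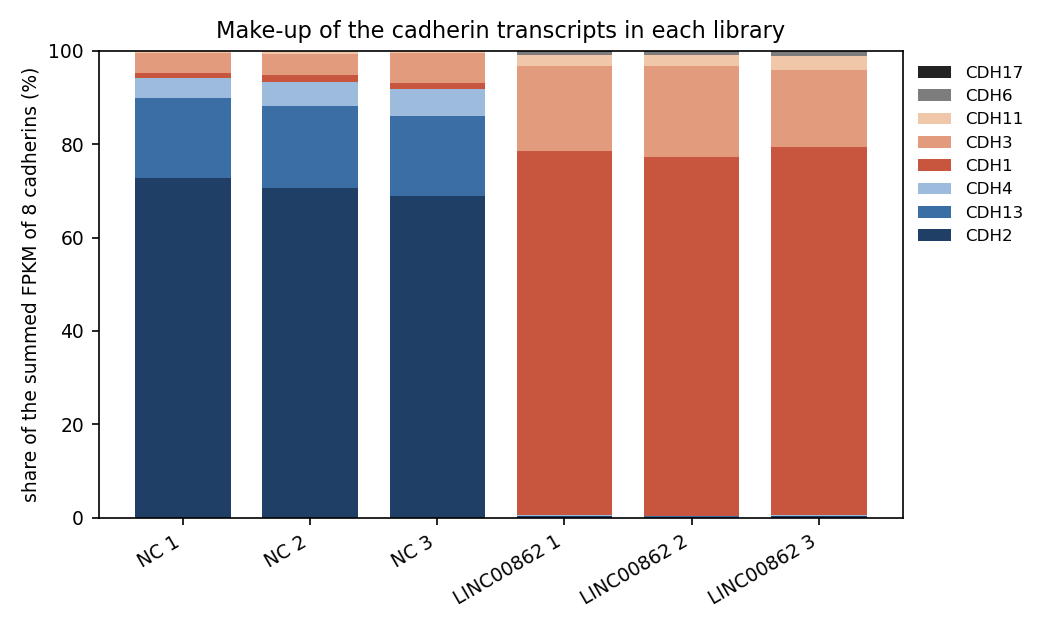
Share of each of 8 cadherins in their summed FPKM, in percent, for each of the 6 libraries. In the NC libraries CDH2 and CDH13 fill most of the bar, and in the LINC00862 libraries CDH1 and CDH3 do, with CDH1 at 76.8% or more.

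The ratio of CDH2 to CDH1 within a library does not depend on how libraries are scaled. As log2 of the FPKM ratio it was 6.14, 5.61 and 5.70 in NC and -8.08, -8.55 and -8.05 in LINC00862. CDH2 exceeded CDH1 at least 48.9-fold in each NC library, and CDH1 exceeded CDH2 at least 265-fold in each LINC00862 library (exact permutation test, two-sided p = 0.1, the smallest possible). As the measurements are on bulk RNA, a change in the share of cells with a cadherin and a change in its RNA per cell cannot be told apart.

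The 8 chosen cadherins did not exhaust the family, as 21 genes named CDH were in the table. Of 15 further CDH genes looked up, 13 were in the table and 7 were tested, of which 5 were higher and 2 lower in LINC00862. Over all tested genes, 34.4% were higher and 29.8% lower. CDH12, a type II cadherin of the brain, rose from 0.00946 ± 0.00140 to 5.05 ± 0.398 FPKM (SD, n = 3), a log2 fold change of 9.01 ± 0.24. CDH5, the endothelial VE-cadherin, rose from 0.403 ± 0.0230 to 4.47 ± 0.483 FPKM (SD, n = 3), while the other endothelial markers PECAM1, VWF and KDR were under 1 FPKM in both groups and did not pass the test. CDH24, a type II cadherin and the more abundant of the pair that fell, went from 10.4 ± 1.35 to 0.983 ± 0.162 FPKM (SD, n = 3). With all 21 genes in the sum, CDH24 held 32.9% ± 4.25 of the NC total, next to CDH2 at 46.5% ± 4.39, and CDH12 and CDH5 held 12.5% ± 0.830 and 11.0% ± 0.340 of the LINC00862 total, next to CDH1 at 55.0% ± 0.933 (SD, n = 3).

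Atypical cadherins and cadherin-related proteins shape planar polarity and growth control. Of 14 tested, 2 were higher, 7 were lower and 5 did not pass the test. The shares over all tested genes were 34.4% higher and 29.8% lower. The list had a median log2 fold change of -0.70 against 0.11 over all tested genes. FAT4, a Hippo pathway receptor, fell from 1.36 ± 0.846 to 0.0197 ± 0.00725 FPKM (SD, n = 3), and the planar polarity cadherins CELSR3 and CELSR1 fell by 3.27 and 2.97 on the log2 scale.

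Of all genes tested in this comparison, 34.4% were higher and 29.8% lower. Among 11 further catenins and armadillo relatives tested, 4 were higher, 6 were lower and 1 did not pass. α-Catenin (CTNNA1), the actin link of the complex, was the most abundant of them in NC and fell from 54.6 ± 9.58 to 25.3 ± 2.47 FPKM (SD, n = 3), with a log2 fold change of -0.93 ± 0.14 (SE, Benjamini-Hochberg adjusted p = 0.000418, edgeR quasi-likelihood test). JUP, encoding plakoglobin (γ-catenin), which can take the place of β-catenin on cadherins and also sits in desmosomes, had 3.42, 3.48 and 5.23 FPKM in NC and 23.6, 25.6 and 19.8 in LINC00862. It rose by 2.67 ± 0.22 on the log2 scale (SE, Benjamini-Hochberg adjusted p = 8.07e-06, edgeR quasi-likelihood test), opposite in direction to CTNNB1. CTNND2, the mainly neural δ-catenin related to p120-catenin, rose from 0.0520 ± 0.0118 to 12.3 ± 0.594 FPKM (SD, n = 3), which brought it near the level of CTNND1. CTNNAL1 (α-catulin), a relative of α-catenin, fell from 42.1 ± 3.81 to 2.77 ± 0.532 FPKM (SD, n = 3).

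**Figure D4:**
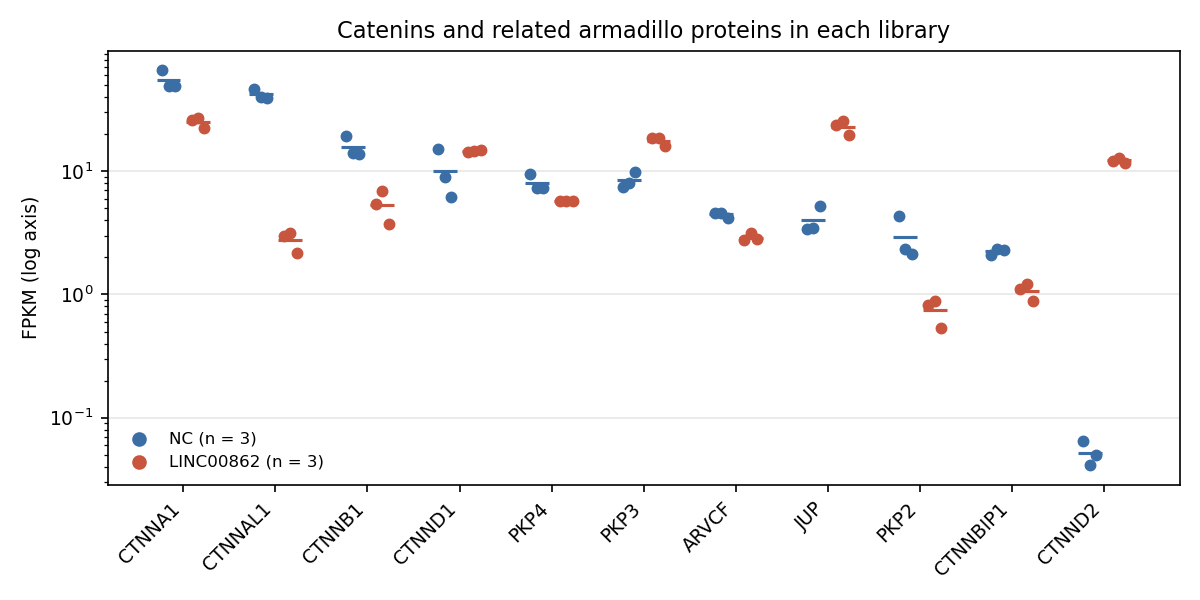
FPKM of catenins and related armadillo proteins in each library, on a log axis, with the 3 NC libraries in blue, the 3 LINC00862 libraries in red and the group mean as a line. CTNNA1, CTNNAL1 and CTNNB1 are lower in LINC00862, JUP, PKP3 and CTNND2 are higher, and the CTNND1 values overlap.

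The catenins were also set against the summed FPKM of the 8 cadherins, a sum that includes CDH13, which has no cytoplasmic part, and leaves out CDH24, CDH12 and CDH5. CTNNB1 FPKM per summed FPKM of the 8 cadherins was 0.715, 0.762 and 0.775 in NC and 0.178, 0.227 and 0.149 in LINC00862, without overlap (exact permutation test, two-sided p = 0.1, the smallest possible). The same ratio for CTNND1 was 0.461 ± 0.105 in NC and 0.516 ± 0.0645 in LINC00862 (SD, n = 3), with overlap between the groups (exact permutation test, two-sided p = 0.6). CTNND1 was below CTNNB1 in every NC library, at 0.619 ± 0.164 times its FPKM, and above it in every LINC00862 library, at 2.92 ± 0.948 times (SD, n = 3). These 3 ratios were chosen after their values had been seen.

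Of 15 junction partners tested, which tie the cadherin complex to nectins and actin, 2 were higher, 7 were lower and 6 did not pass. The shares over all tested genes, for this list and the next, were 34.4% higher and 29.8% lower. Vinculin (VCL), which strengthens the actin link under tension, fell from 18.4 ± 7.73 to 2.99 ± 0.491 FPKM (SD, n = 3), and the adhesion molecule NECTIN3 fell by 3.63 on the log2 scale. Of 8 proteases that shed or cleave cadherins, 3 were higher, 3 were lower and 2 did not pass. Matrilysin (MMP7), which can cut E-cadherin, rose from 0.0300 ± 0.0106 to 4.15 ± 0.319 FPKM, and the membrane protease MMP14 fell from 28.4 ± 4.60 to 0.397 ± 0.0412 FPKM (SD, n = 3), while ADAM9 fell by 2.34 on the log2 scale.

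The complex that marks β-catenin for destruction changed little by comparison, with a median absolute log2 fold change of 0.56 over 11 tested genes against 1.16 over all tested genes. Of these 11, 3 were higher, 2 were lower and 6 did not pass, where 34.4% of all tested genes were higher and 29.8% lower. AXIN2 is counted here and again among the target genes. APC, which did not pass, went from 3.05 ± 1.48 to 1.16 ± 0.833 FPKM (SD, n = 3) without overlap. It had 166 counts in LINC00862 library 2 against 1584 and 1353 in LINC00862 libraries 1 and 3. SIAH1, a ubiquitin ligase that can act on β-catenin, rose from 3.52 ± 0.0937 to 14.3 ± 0.364 FPKM (SD, n = 3), and GSK3B, the kinase that marks β-catenin, and FBXW11, a ligase subunit, fell by 0.99 and 0.84 on the log2 scale. Among 10 nuclear partners of β-catenin, 3 were higher, 5 were lower and 2 did not pass, against the same shares over all tested genes. The DNA-binding partners TCF7L1 and TCF7L2 fell by 4.18 and 2.31 on the log2 scale, and the coactivator PYGO2 rose from 11.0 ± 2.36 to 24.1 ± 3.52 FPKM (SD, n = 3).

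Known β-catenin target genes were higher more often than lower: of 12 tested, 8 were higher, 2 were lower and 2 did not pass, where 34.4% of all tested genes were higher and 29.8% lower. The median log2 fold change of the targets was 2.37 against 0.11 over all tested genes. RNF43, a membrane ligase that dampens Wnt reception, rose from 0.0706 ± 0.0402 to 2.59 ± 0.269 FPKM, and the secreted Wnt inhibitor NOTUM rose from 0.101 ± 0.0331 to 1.96 ± 0.298 FPKM (SD, n = 3). DKK1, another secreted Wnt inhibitor, fell from 19.1 ± 1.59 to 1.25 ± 0.300 FPKM (SD, n = 3). AXIN2 and ZNRF3, negative-feedback targets of the pathway, did not pass, with log2 fold changes of 0.27 ± 0.38 and 0.00 ± 0.19 (SE).

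**Figure D5:**
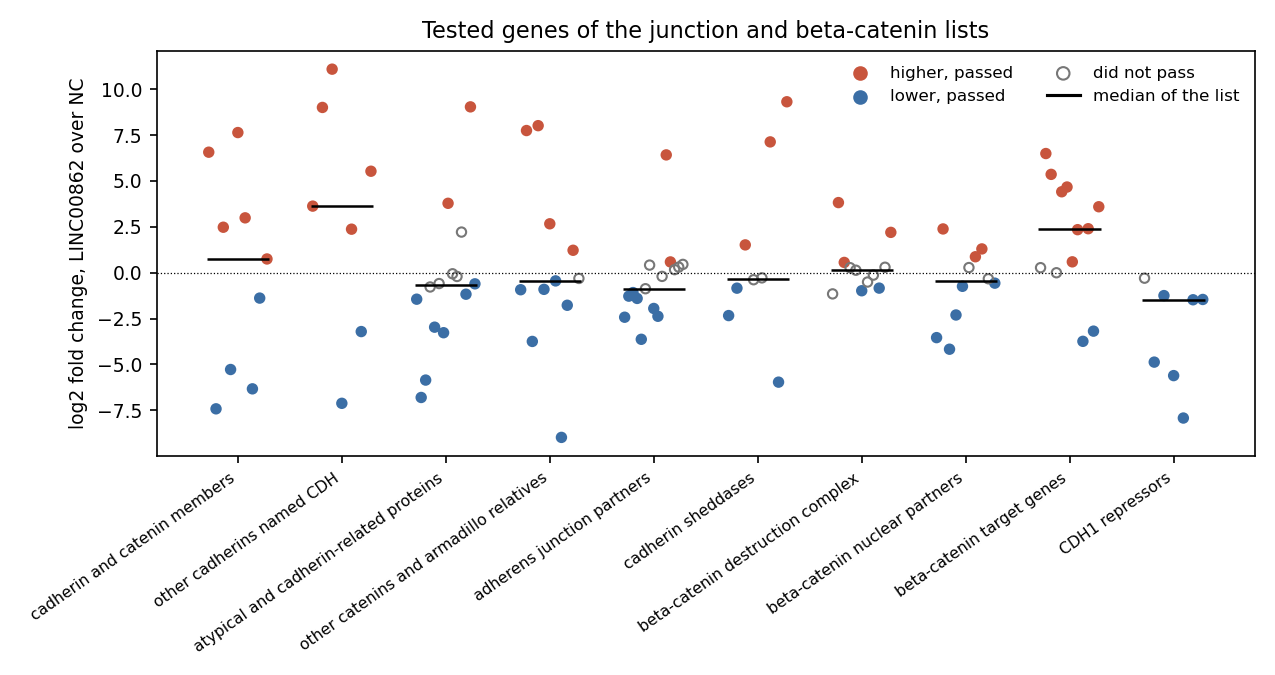
Log2 fold change, LINC00862 over NC, of each tested gene in 10 lists, with genes that passed the test in red (higher) or blue (lower), the others as open circles, and the list median as a line. The medians of β-catenin targets (2.37) and CDH1 repressors (-1.48) lie on opposite sides of 0.

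The CDH1 repressors, transcription factors that bind E-boxes of the CDH1 promoter in other systems, were lower in 6 of 7 cases and higher in none, with a median log2 fold change of -1.48 against 0.11 over all tested genes, of which 29.8% were lower and 34.4% higher. TWIST1 went from 5.46 ± 0.670 to 0.0182 ± 0.0316 FPKM, SNAI2 from 3.25 ± 0.181 to 0.0929 ± 0.0422 and ZEB2 from 0.874 ± 0.365 to 0.0149 ± 0.00376 (SD, n = 3), with log2 fold changes of -7.93, -4.88 and -5.61. TWIST1 had 627, 732 and 806 counts in NC and 0, 8 and 0 in LINC00862. TCF3, TCF4 and ZEB1 fell by 1.48, 1.46 and 1.25 on the log2 scale. SNAI1 did not pass, at 1.17 ± 0.0939 FPKM in NC and 0.825 ± 0.425 in LINC00862 (SD, n = 3, log2 fold change -0.30 ± 0.44).

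Markers of other cell types were read beside these results. Over all tested genes, 34.4% were higher and 29.8% lower. Of 7 fibroblast markers, 2 were higher, 2 were lower and 3 did not pass, and their summed FPKM lay between 45.6 and 56.5 in NC and between 11.9 and 15.8 in LINC00862. THY1 carried most of this sum in NC, with 42.2 ± 6.07 FPKM there and 0.101 ± 0.00758 in LINC00862 (SD, n = 3), and PDGFRB fell by 5.86 on the log2 scale. The collagen COL1A1 carried most of it in LINC00862, rising from 2.43 ± 0.199 to 10.6 ± 2.45 FPKM (SD, n = 3). The 6 endothelial markers, CDH5 among them, summed to between 1.24 and 1.80 FPKM in NC and between 4.48 and 5.96 in LINC00862, and of 5 tested only CDH5 passed. The 5 leukocyte markers summed to between 2.05 and 2.22 FPKM in NC and between 4.94 and 9.68 in LINC00862, of which only CD68 passed, while the defining leukocyte marker PTPRC was at 0.283 ± 0.0673 and 0.198 ± 0.0394 FPKM (SD, n = 3).

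Genes whose profile over the 6 libraries was most like that of a member were found by the root mean square difference of mean-centred log2 CPM. The log2 CPM includes a small added count, which shrinks the difference for genes with few or no reads in a group. Nearest to CDH1 were the long noncoding RNAs LINC01132 (0.0884), AC103974 (0.0966) and LINC01091 (0.105). AC103974 and LINC01091 averaged 0 FPKM in NC. Their edgeR log2 fold changes were 10.7 and 10.5, against 6.57 for CDH1, so their nearness depends on that added count. Nearest to CDH2 were FSTL1 (0.115), LINC01224 (0.212) and F2R (0.218), of which FSTL1, a secreted glycoprotein, averaged 93.0 FPKM in NC and 0.458 in LINC00862. Nearest to CTNNB1 were COPG2 (0.0740), RACGAP1 (0.0886) and FANCE (0.0911). With 6 libraries in 2 groups, such likeness rests mostly on the size of the group difference on this log2 CPM scale.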

How the data were processed

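Polyadenylated RNA of 6 libraries was sequenced as dUTP-stranded paired-end libraries. The authors deposited counts of reads per gene, not normalized, and FPKM, which the authors scaled by transcript length and mapped fragments. Per the labels, the submitters' processing notes name cutadapt 1.9, HISAT2 2.0.4, UMI-tools, StringTie 1.3.4d, DESeq2, edgeR and hg38, without roles. Whether strand or molecular identifiers were used in counting is not given in the sources used here.

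Counts were tested with edgeR 4.0.16 in R 4.3.3 (filterByExpr, TMM, quasi-likelihood test, Benjamini-Hochberg adjustment over all 20741 tested genes, false discovery rate 0.05), with all 6 libraries and no covariate. Standard errors were derived from the test statistic. FPKM, shares and ratios of single genes were compared by exact two-sided permutation tests, whose smallest p here is 0.1. Count ratios have exact 95% intervals for counting error only. The script was tested on simulated data with 200 changed genes, far fewer than were called here. That test therefore does not cover so wide a change. Figures and tables used Python 3.11.15, pandas 2.3.3 and matplotlib 3.10.9.

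Groups came from the sample labels. Alternatives were DESeq2 1.42.0, upper quartile scaling, library size only, every gene with at least 1 count, a replicate block, leaving out each library, limma 3.58.1 on log2(FPKM + 1) and log2(FPKM + 0.1), a false discovery rate of 0.01 and a test against a 2-fold change. The members and lists were chosen with earlier results of these data known. Named genes are all members, up to 3 per list with the largest change among those past the test with at least 1 mean FPKM in a group, CTNNA1, JUP and the CDH1 repressors, LINC00862 and RBM47, and 3 nearest profiles each for CDH1, CDH2 and CTNNB1. AP001931, APC, AXIN2, ZNRF3 and the markers outside this rule were named after their values had been seen. The study's proteomics and tissue assays were not analysed here. Some genes of the lists are counted but not reported here by name.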

Additional observations from a re-analysis of the deposited data

How the results depend on the processing

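The other 8 tested members kept their direction and call in all 15 alternatives, and between 8 and 9 members were called. CTNND1 kept its direction, but its call was lost with library size only (0.56), limma on log2(FPKM + 1) (0.58) and on log2(FPKM + 0.1) (0.64), the test against a 2-fold change (0.75) and a false discovery rate of 0.01 (0.75). Leaving out each library gave 0.52 to 1.09 for CTNND1. With every CDH-named gene in the sum, the change in share was 54.2 percentage points for CDH1 (76.6 over 8 cadherins) and -46.3 for CDH2 (-70.5). A pseudocount of 0.1 FPKM moved the group difference in the log2 CDH2 to CDH1 ratio from -14.0 to -12.4. The test against a 2-fold change called 8010 genes, 3204 of them lower, against 13321 and 6176.

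SNAI1, which did not pass, ranged from -0.80 without LINC00862 replicate 3 to 0.039, a reversed sign, without LINC00862 replicate 2. Junction partners called higher, 2 in the report, numbered 4 with upper quartile scaling, 5 without NC replicate 1, and 1 with library size only, either limma fit, the 2-fold test or a false discovery rate of 0.01. The 2-fold test also lost the calls of CTNNA1, FBXW11, GSK3B, PYGO2, TCF4 and ZEB1. The median log2 fold change of all genes was 0.11 under TMM, 0.32 under upper quartile scaling and -0.05 under library size alone. Of the genes called, 53.6%, 60.4% and 48.5% were higher under these scalings. The cause of these shifts was not tested.

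Samples share only a replicate number: correlations of same-numbered deviations were -0.05, -0.03 and -0.01. With the number as a replicate block, 12098 genes and 9 of 9 tested members were called.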
